A study of Mus musculus with 15 samples.

Results

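RNA was sequenced from the distal jejunum of adult male C57BL/6 mice, and the results below compare mice lacking Aster-B and Aster-C with wildtype mice, both fed the control diet. The comparison rests on 7 of the 15 libraries, 4 from wildtype and 3 from knockout mice, chosen by their labels. The other 8 libraries, 4 of each genotype, came from mice fed the same diet with ezetimibe added, and enter in 3 ways: in the filter on low genes, in the estimate of spread that all 15 libraries share, and as a genotype difference on that diet to set beside the one described here. Every animal was 13 to 15 weeks old and every diet held 0.08% cholesterol, so the control diet is itself low in cholesterol, and the other diet held 0.01% ezetimibe on top. The labels call the line a global knockout of both genes, which means that every cell of the body carries the deletions, and they do not give the deleted exons. They do not say whether each library is 1 mouse, so the p-values measure the spread between these libraries.

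Aster-B, encoded by Gramd1b, and Aster-C, encoded by Gramd1c, are proteins of the endoplasmic reticulum that reach to the plasma membrane and carry accessible cholesterol from it to the reticulum. In the small intestine, dietary cholesterol enters the brush border membrane through NPC1L1, the transporter that ezetimibe blocks. Cholesterol that arrives in the reticulum holds back SREBP-2, the factor that drives cholesterol synthesis and uptake genes, and its oxidised derivatives activate LXR, the nuclear receptor that drives the efflux pump gene Abca1. The epithelium itself is renewed from dividing stem cells in the crypts, where Paneth cells secrete antimicrobial proteins, while absorptive enterocytes and intraepithelial lymphocytes line the villi.

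The deposited values were normalised counts, from which whole reads could be recovered, and the 7 libraries held 13855034 to 19307079 reads. Correlation within a group ran from 0.9659 to 0.9828 over 14299 genes on the log2 scale, and mitochondrially encoded genes held 3.96% to 4.38% of a library. Enterocyte markers were high in all 7 libraries, with summed levels of 654472 to 935808 in wildtype and 820758 to 925986 in knockout. Slc10a2, a bile acid transporter typical of the ileum, was also present in all 7, at 1313, 1022, 1088 and 1112 in wildtype and 1284, 2078 and 1508 in knockout. Fabp6, another ileal gene, varied more, at 182, 381, 184 and 56.0 in wildtype and 497, 224 and 601 in knockout. Fgf15, also ileal, was low, at 12.4, 49.9, 6.18 and 2.04 in wildtype and 34.1, 23.5 and 5.42 in knockout. The position of each piece along the gut was not tested. The first principal component, with 32.7% of the variance, did not separate the genotypes. The second, with 20.8%, did, at -30.7 to -2.5 in wildtype and 7.23 to 37.8 in knockout. Wildtype libraries 2 and 4 held more crypt and B cell RNA than wildtype libraries 1 and 3, as given beside the results below. Wildtype libraries 1 and 2 differed from 3 and 4 in clock and heat shock genes. Clock genes averaged a log2 level of 9.03, 8.95, 8.38 and 8.30 in wildtype and 8.18, 8.47 and 8.73 in knockout. Heat shock genes averaged 9.63, 9.93, 10.7 and 11.3 in wildtype and 10.4, 11.1 and 10.0 in knockout. Neither limma nor DESeq2 called any of the 17 clock or 9 heat shock genes tested. The part of this split in the results was not tested.

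The targeted genes were checked first. Gramd1c (ENSMUSG00000036292, GRCm38 chromosome 16, 43980350 to 44063345) had normalised counts of 1287, 1059, 1845 and 1339 in the wildtype libraries and 194, 119 and 115 in the knockout libraries, a log2 fold change of -3.28 with SE 0.247 (limma adjusted p = 9.32e-06). Gramd1b (ENSMUSG00000040111, GRCm38 chromosome 9, 40293233 to 40531383) stood at 3784, 2274, 4046 and 2608 in wildtype and 1247, 962 and 1229 in knockout, a log2 fold change of -1.44 with SE 0.175 (limma adjusted p = 0.0022). The groups did not overlap for either gene, so all 7 libraries matched their genotype labels, although reads on Gramd1b remained, and these gene-level values do not show which exons they cover. Gramd1a, which encodes Aster-A and was not targeted, had 282, 197, 284 and 209 in wildtype and 104, 166 and 144 in knockout. Its log2 fold change of -0.82 (SE 0.186) missed the threshold by limma (adjusted p = 0.0636) and passed it by DESeq2 on the recovered reads (adjusted p = 0.00529). Npc1l1 did not pass, at 18129, 13905, 16324 and 13664 in wildtype and 15432, 12626 and 19462 in knockout, a log2 fold change of 0.018 (SE 0.168).

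**Figure D1:**
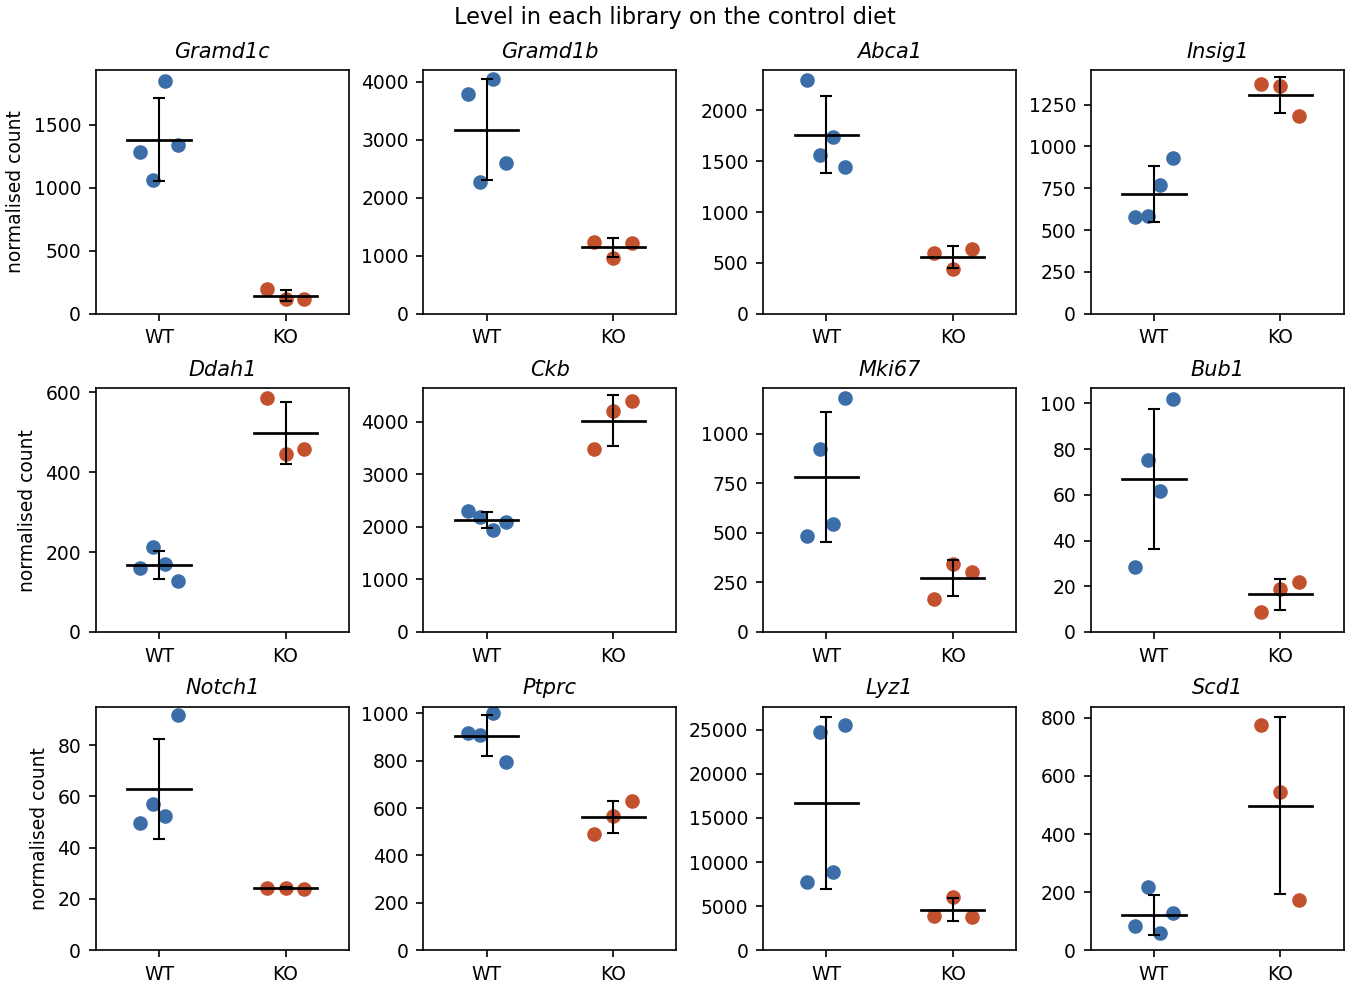
Normalised count of 12 genes in each control-diet library (blue, wildtype, n = 4; orange, knockout, n = 3), with the group mean as a line and the SD as an error bar, each axis starting at 0. The groups do not overlap for Gramd1c, Gramd1b, Abca1, Insig1, Ddah1, Ckb, Mki67, Bub1, Notch1, Ptprc and Lyz1, while the lowest knockout value of Scd1 lies among the wildtype values.

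Across the transcriptome, 53 of 14299 genes tested passed an adjusted p of 0.05 in limma (0.371%), 32 lower in knockout (0.224%) and 21 higher (0.147%). The number depended on the test: edgeR called 12 genes and voom 10, all among the 53, and limma fitted to the 7 control-diet libraries alone called 3. An unadjusted p under 0.05 was met by 2106 genes, or 14.7%. DESeq2 on the recovered reads called 442 of the 12903 genes it gave an adjusted p (3.43%), 239 lower (1.85%) and 203 higher (1.57%), among them all 53. The authors' deposited table of the same comparison lists 424 genes, 422 of them among those 442. Of all genes tested, 5.57% had every knockout library below every wildtype library and 6.59% had every one above, against which the non-overlapping groups below can be read. All 53 called genes had groups that did not overlap. The counts leaned on single libraries: limma called 3 genes without knockout library 1, 4 without wildtype library 2 or knockout library 3, 7 without wildtype library 3, 18 without wildtype library 4 and 126 without wildtype library 1. DESeq2 called 31 higher and 27 lower without knockout library 1, 116 and 129 without wildtype library 2, and 124 and 167 without wildtype library 4. With TMM scaling in place of the deposited one, limma called 38 genes, of which 23.7% were higher against 39.6% of the 53. DESeq2 counts without 1 library were added after the data were seen. Gramd1c, Gramd1b and Abca1 passed in limma whichever of the 7 libraries was left out, and Ddah1 in 6 of the 7 such fits. Of the 53 genes, 6 passed in at least 4 of the 7 fits and 4 passed in none. Ckb and Bub1 passed in 1 of the 7, and Insig1 in 2.

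**Figure D2:**
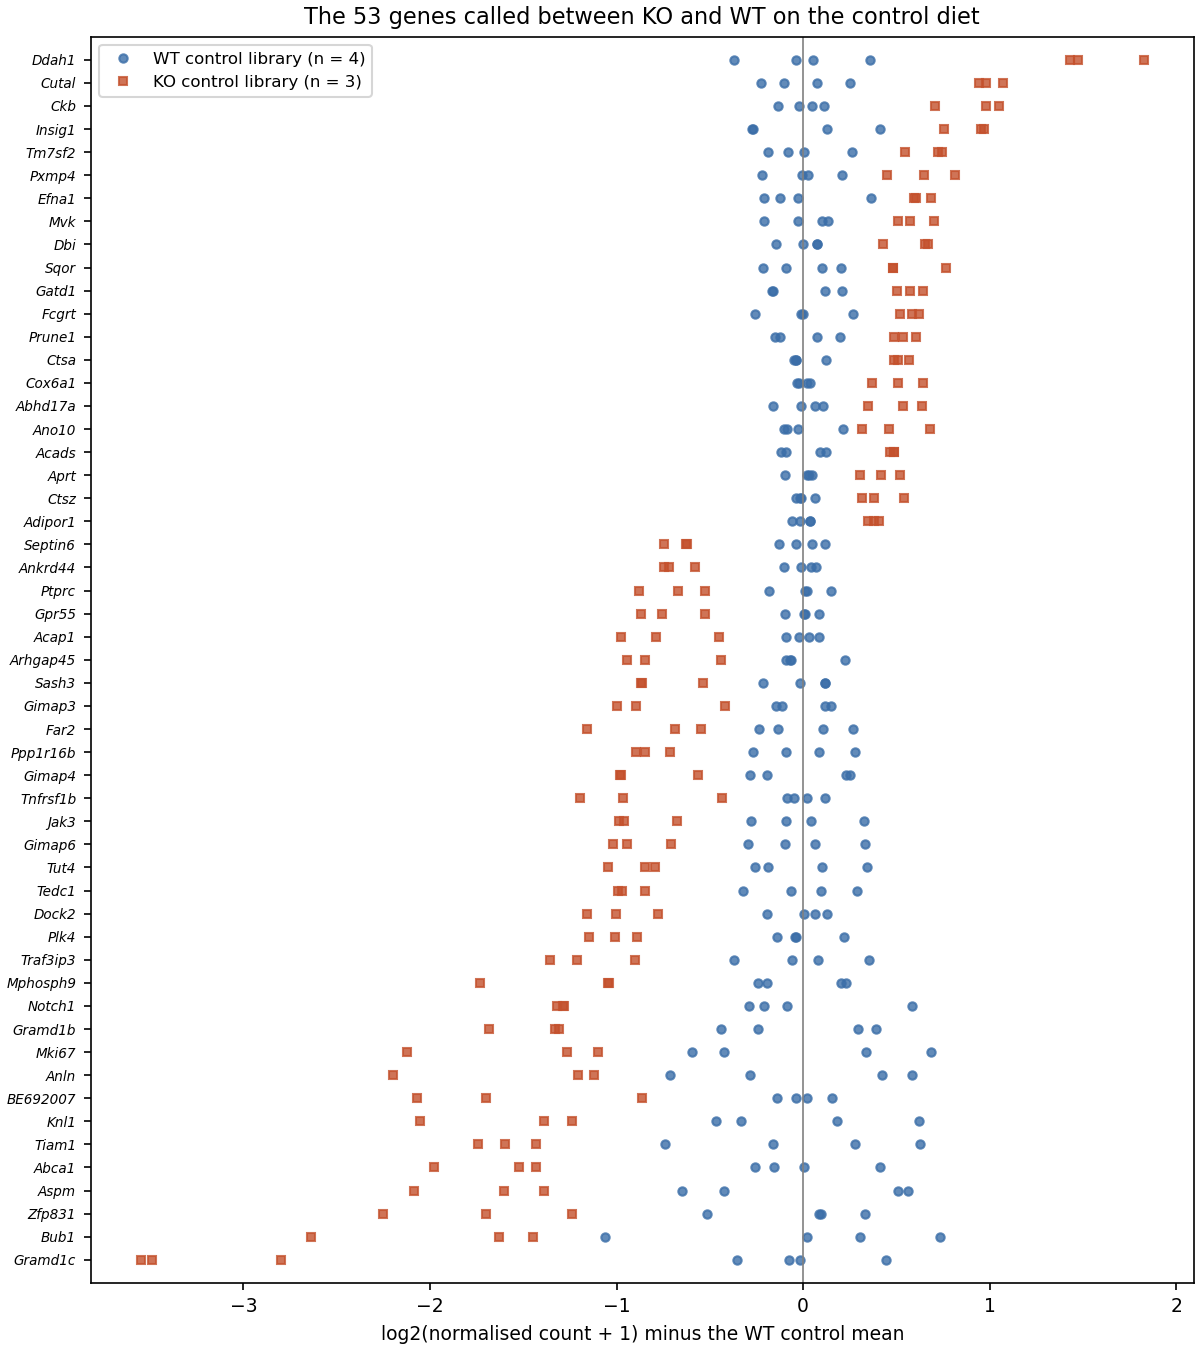
The 53 genes called by limma on the control diet, each row 1 gene, with log2(normalised count + 1) of every library relative to the wildtype mean (blue circles, wildtype, n = 4; orange squares, knockout, n = 3). The 21 genes at the top were higher in knockout and the 32 below them lower, and in no row do the groups overlap.

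Genes of cellular cholesterol handling moved in both directions. Abca1, the LXR target that pumps cholesterol out of the cell, fell, whereas Insig1, the SREBP target that retains SREBP in the reticulum, and the cholesterol synthesis genes Tm7sf2 and Mvk rose. Abca1 (GRCm38 chromosome 4, 53030787 to 53159895) had 2299, 1556, 1735 and 1446 in wildtype and 601, 439 and 641 in knockout, a log2 fold change of -1.64 with SE 0.194 (limma adjusted p = 0.0022). The highest knockout library held less than the lowest wildtype library, and Abca1 passed whichever library was left out. Insig1 (GRCm38 chromosome 5, 28071363 to 28078662) had 581, 583, 767 and 933 in wildtype and 1374, 1359 and 1184 in knockout, a log2 fold change of 0.89 with SE 0.149 (adjusted p = 0.0309). Tm7sf2, a sterol reductase of the late pathway, rose by a log2 fold change of 0.67 with SE 0.124 (adjusted p = 0.047), from 162, 173, 206 and 151 to 288, 252 and 284. It overlaps Vps51, and no source used here says whether the counting used strand, so reads of the 2 genes cannot be told apart. Mvk, mevalonate kinase, rose by a log2 fold change of 0.59 with SE 0.120 (adjusted p = 0.047), from 129, 163, 146 and 160.0 to 213, 243 and 222, and passed in none of the fits that left out 1 library.

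The remainder of both sterol lists leaned the same way with smaller values. Of 20 cholesterol synthesis genes tested, limma called 2 higher and none lower and DESeq2 called 5 higher, 19 were positive, and the median log2 fold change was 0.33 against -0.0054 over all genes tested. In 8 of the 20 every knockout library lay above every wildtype library. The DESeq2 count was 2 without knockout library 1 or 2. Hmgcs1, the synthase that feeds HMG-CoA reductase, had 1276, 1434, 1766 and 2233 in wildtype and 2478, 3237 and 2388 in knockout (DESeq2 log2 fold change 0.68, adjusted p = 0.0102). Fdft1, squalene synthase, had 267, 476, 432 and 525 in wildtype against 640.3, 791 and 613 in knockout (DESeq2 log2 fold change 0.68, adjusted p = 0.0178), although it overlaps Ctsb. Mvd, the mevalonate pathway decarboxylase, completed the DESeq2 calls (adjusted p = 0.04). Of 12 sterol uptake and sensing genes, Insig1 was the only call by either tool, and the list median was 0.30.

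Abca1 stood alone among the LXR targets. Of 12 genes on that list tested, it was the only call by limma or DESeq2, 6 were negative and 6 positive, and the median log2 fold change was -0.026. Abcg1, a related efflux transporter, had 44.9, 40.9, 38.1 and 41.8 in wildtype and 25.2, 23.5 and 40.1 in knockout, a log2 fold change of -0.51 with SE 0.232, which missed the threshold (adjusted p = 0.323). Lpcat3, the phospholipid remodelling enzyme and also an LXR target, was at 0.30 (SE 0.103) and did not pass either.

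The promoters of the sterol genes that passed are printed to show what lies upstream of the genes that moved in opposite directions. Each runs from 250 bases before to 50 bases after the gene's start, from RefSeq on GRCm38.p6, read 5′ to 3′ on the gene's strand. In Abca1, on the minus strand at chr4:53159846-53160145, the capitals mark a direct repeat of the LXR type (NGGTNA, 4 bases of any kind, NGGTNA again), found on the opposite strand from -67 to -52 relative to the start. In the other promoters, Insig1 on the plus strand at chr5:28071162-28071461, Tm7sf2 on the minus strand at chr19:6067801-6068100 and Mvk on the plus strand at chr5:114444019-114444318, the capitals mark CCAAT boxes (CCAAT on either strand), the site of a factor that works beside SREBP.
Abca1: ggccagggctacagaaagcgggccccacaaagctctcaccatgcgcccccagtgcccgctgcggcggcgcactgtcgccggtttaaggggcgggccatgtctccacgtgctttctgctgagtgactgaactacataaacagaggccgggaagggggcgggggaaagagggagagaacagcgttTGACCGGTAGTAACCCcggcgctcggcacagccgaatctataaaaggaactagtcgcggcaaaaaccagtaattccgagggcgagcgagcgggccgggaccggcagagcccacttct
Insig1: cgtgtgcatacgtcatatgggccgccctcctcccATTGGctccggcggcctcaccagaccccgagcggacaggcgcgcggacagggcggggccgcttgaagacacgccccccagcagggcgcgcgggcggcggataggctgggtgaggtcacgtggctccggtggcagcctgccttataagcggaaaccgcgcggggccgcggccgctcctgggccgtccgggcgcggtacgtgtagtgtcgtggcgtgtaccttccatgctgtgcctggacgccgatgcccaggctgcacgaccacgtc
Tm7sf2: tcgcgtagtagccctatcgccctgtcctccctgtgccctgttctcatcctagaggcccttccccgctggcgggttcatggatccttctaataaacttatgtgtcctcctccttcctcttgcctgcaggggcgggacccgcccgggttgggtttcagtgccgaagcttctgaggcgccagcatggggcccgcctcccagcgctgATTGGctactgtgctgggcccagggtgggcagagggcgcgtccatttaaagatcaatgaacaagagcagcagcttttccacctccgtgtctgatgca
Mvk: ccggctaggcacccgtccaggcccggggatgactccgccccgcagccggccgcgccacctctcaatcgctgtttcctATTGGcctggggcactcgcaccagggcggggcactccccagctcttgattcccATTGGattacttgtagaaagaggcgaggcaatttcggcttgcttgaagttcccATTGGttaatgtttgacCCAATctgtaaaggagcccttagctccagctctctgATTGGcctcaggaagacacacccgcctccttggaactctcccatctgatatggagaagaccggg
The LXR repeat was present in 2 of 9 LXR targets that had a promoter in the table, and in 0.818% of 27025 genes with a promoter. A CCAAT box was present in 14 of 15 cholesterol synthesis genes (93.3%), in 6 of 7 sterol uptake and sensing genes, and in 41.1% of all genes. The classical sterol element TCACNCCAC was found in 1 of the 15 synthesis promoters and in 1.44% of all genes. Over 10421 tested genes with a promoter, the LXR repeat was in 0.566%, a CCAAT box in 42.7% and the sterol element in 1.46%. Motifs were searched on both strands, a match is a description of these letters, and none was tested for binding here.

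Among the 21 genes that limma called higher, Ddah1 had the highest fold change. Ddah1, which breaks down asymmetric dimethylarginine, an inhibitor of nitric oxide synthases, had (GRCm38 chromosome 3, 145758675 to 145894277) 160.4, 212, 171 and 127 in wildtype and 587, 446 and 459 in knockout. The log2 fold change was 1.58 with SE 0.203 (limma adjusted p = 0.00338), and the lowest knockout library was above the highest wildtype library. Of the 10 arginine and nitric oxide genes tested, Ddah1 was the only call by either tool. Ckb, brain-type creatine kinase, which buffers ATP, had (GRCm38 chromosome 12, 111669361 to 111672338) 2298, 2193, 1940.0 and 2089.8 in wildtype and 3477, 4202 and 4396 in knockout, a log2 fold change of 0.91 with SE 0.156 (adjusted p = 0.0315). It was likewise the only call among 5 creatine genes. Cutal rose from 39.2, 34.5, 44.3 and 31.6 to 72.2, 74.2 and 79.1, a log2 fold change of 1.00 with SE 0.188 (adjusted p = 0.047), and overlaps Psmd5. Efna1, an ephrin ligand of Eph receptors, rose by a log2 fold change of 0.63 (SE 0.119).

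The remaining genes that rose are given by what they encode, a grouping made after their values were seen. Acads, the short-chain acyl-CoA dehydrogenase of mitochondrial β-oxidation, rose from 814, 831, 704 and 718 to 1074, 1058 and 1073 (log2 fold change 0.48, SE 0.0943, limma adjusted p = 0.047). Dbi, the acyl-CoA binding protein, rose from 6899, 7243, 6219 and 7258 to 10856, 10946 and 9259.5, and its groups were well apart (log2 fold change 0.58, SE 0.113). Pxmp4, a peroxisomal membrane protein, rose by 0.64 (SE 0.127) on the log2 scale. Sqor, which oxidises sulfide in mitochondria, rose by 0.58 (SE 0.110), and Cox6a1, a subunit of cytochrome c oxidase, by 0.51 (SE 0.0942). Among lysosomal proteases, Ctsa rose by 0.52 (SE 0.102) and Ctsz by 0.41 (SE 0.0829); Ctsa overlaps Pltp, and Ctsz overlaps Nelfcd. Fcgrt, the neonatal Fc receptor that recycles immunoglobulin G and albumin, rose by 0.57 (SE 0.108). Aprt, which salvages adenine, rose by 0.41 (SE 0.0829), and Adipor1, an adiponectin receptor, by 0.38 (SE 0.0751), the least of the 21. Gatd1, Prune1, Abhd17a and Ano10 made up the rest, between 0.49 and 0.57.

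Mitochondrial gene lists leaned upward by small amounts. Of 21 oxidative phosphorylation genes, limma called none, DESeq2 called 4 higher, and 19 were positive, with a median log2 fold change of 0.11. In 9 of the 21 every knockout library lay above every wildtype library. The DESeq2 calls were Ndufa1 of complex I, Uqcrc1 of complex III, and Cox4i1 and Cox6c of complex IV. Cox4i1 had 5364, 5533, 5254 and 5465 in wildtype and 6597, 8191 and 7080.3 in knockout (DESeq2 log2 fold change 0.43, adjusted p = 0.0166). The count was 0 without knockout library 2, 1 without knockout library 1 and 2 without wildtype library 1, 2 or 3. Of 20 genes of fatty acid oxidation and PPARa targets, limma called none, DESeq2 called Acadm and Hadhb higher, and 17 were positive, with a median of 0.28. Acadm, the medium-chain acyl-CoA dehydrogenase, had 2805, 2591, 2632 and 2395 in wildtype and 3488, 3371 and 3623 in knockout (limma adjusted p = 0.0636, DESeq2 adjusted p = 0.00277). Without knockout library 1 neither gene was called by DESeq2, and without knockout library 2 or wildtype library 2, 3 or 4 only 1 was.

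DESeq2 also called genes with higher folds that varied more between libraries. Scd1, the stearoyl-CoA desaturase, had 83.1, 217, 60.8 and 127 in wildtype and 775, 544 and 171 in knockout (DESeq2 log2 fold change 2.02, adjusted p = 0.0238; limma adjusted p = 0.105). Knockout library 3 lay within the wildtype range. Slc6a3, the dopamine transporter gene, had a wildtype mean of 37.0 ± 2.10 (SD, n = 4) and 192, 76.0 and 70.4 in knockout, with library 1 the highest (DESeq2 log2 fold change 1.61, adjusted p = 0.0011). Tm4sf4, a tetraspan membrane protein, had 9790.5, 6783, 4664 and 5411 in wildtype against 22821, 17448 and 7621 in knockout (DESeq2 adjusted p = 0.00667), and its groups overlapped. Paqr8, a membrane progestin receptor, had 77.3, 77.2, 49.5 and 48.9 in wildtype against 208, 142 and 164 in knockout (DESeq2 adjusted p = 0.0145). Cyp2j6, a cytochrome P450, had 4567, 5425, 2889 and 2821 in wildtype against 9521, 6601 and 7786 in knockout (DESeq2 adjusted p = 0.00304). Mfsd2a, which carries lysophosphatidylcholine, Mmp15, a membrane-type metalloproteinase, and Ret, a receptor tyrosine kinase, had DESeq2 log2 fold changes of 0.84, 0.84 and 0.98. None of these 8 passed by limma, whose adjusted p ran from 0.0529 for Mfsd2a to 0.127 for Ret. For Tm4sf4, Paqr8 and Cyp2j6 wildtype libraries 1 and 2 were above 3 and 4. The clock gene Dbp had the same order, at 867, 764, 49.5 and 120 in wildtype and 69.0, 215 and 278 in knockout. Whether these splits share a source was not tested.

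Genes of cell division were lower in knockout. Of 28 mitosis and spindle genes tested, limma called 5 lower, DESeq2 called 17 lower, and all 28 were negative, with a median log2 fold change of -1.24. In 15 of the 28 every knockout library lay below every wildtype library. The DESeq2 count was 6 without knockout library 1 and 11 without wildtype library 2 or 4. Bub1, a kinase of the spindle checkpoint, had 28.6, 75.4, 61.8 and 102 in wildtype and 8.93, 19.0 and 21.7 in knockout, a log2 fold change of -1.91 with SE 0.378 (limma adjusted p = 0.047). Mki67, which coats mitotic chromosomes and encodes the Ki-67 proliferation antigen, had (GRCm38 chromosome 7, 135689784 to 135716361) 483, 924, 546 and 1177 in wildtype against 167, 341 and 304 in knockout, a log2 fold change of -1.50 with SE 0.288 (adjusted p = 0.047). Wildtype libraries 2 and 4 were the highest for both genes. Knl1, a kinetochore scaffold, fell, with a log2 fold change of -1.56 (SE 0.281), Aspm, which organises spindle poles, with -1.69 (SE 0.333), and Anln, which acts at the cleavage furrow, with -1.51 (SE 0.303). Kif11, the kinesin that pushes spindle poles apart, had 103, 214, 123 and 276 in wildtype against 56.0, 74.2 and 63.9 in knockout and missed the threshold by limma (adjusted p = 0.0529) but not by DESeq2 (adjusted p = 0.00063).

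Other called genes act at centrioles and centrosomes. Plk4, the kinase that starts centriole duplication, had 114, 122, 122 and 146 in wildtype and 56.0, 67.0 and 61.7 in knockout, a log2 fold change of -1.01 with SE 0.170 (limma adjusted p = 0.0309). Its wildtype libraries were close together, and each knockout library lay well below them. Tedc1, of a complex that stabilises centriole tubulin, had 115, 103, 85.5 and 131 in wildtype against 59.2, 53.4 and 54.2 in knockout, a log2 fold change of -0.94 with SE 0.148 (adjusted p = 0.0296). Mphosph9, a centriole protein, fell, with a log2 fold change of -1.27 (SE 0.232).

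The promoters of the mitotic genes with the smallest p, Knl1 on the plus strand at chr2:119046869-119047168 and Mki67 on the minus strand at chr7:135716330-135716629, are printed to show the cell cycle homology region, or CHR. This element (TTTGAA on either strand, in capitals) is bound by the complexes that switch mitotic genes on and off through the cell cycle. In Knl1 it lies from 31 to 36, past the start, and in Mki67 it occurs at -116 and again at -98.
Knl1: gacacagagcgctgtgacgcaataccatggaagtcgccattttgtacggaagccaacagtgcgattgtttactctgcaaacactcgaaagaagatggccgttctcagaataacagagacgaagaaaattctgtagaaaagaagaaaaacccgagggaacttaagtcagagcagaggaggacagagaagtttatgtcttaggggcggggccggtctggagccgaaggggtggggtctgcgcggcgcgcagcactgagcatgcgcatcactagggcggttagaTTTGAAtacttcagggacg
Mki67: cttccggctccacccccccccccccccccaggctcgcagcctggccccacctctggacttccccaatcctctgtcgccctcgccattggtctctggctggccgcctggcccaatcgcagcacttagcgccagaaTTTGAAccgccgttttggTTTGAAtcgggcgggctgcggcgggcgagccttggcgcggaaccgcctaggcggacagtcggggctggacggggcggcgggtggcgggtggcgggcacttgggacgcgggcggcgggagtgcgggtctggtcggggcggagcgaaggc
The CHR letters were present in 19 of 24 mitosis and spindle genes with a promoter (79.2%), in 8 of 28 genes called lower (28.6%), in 1 of 21 called higher, and in 20.2% of all 27025 genes. A CCAAT box was present in the same share of the mitosis genes, 79.2%. The E2F letters TTTNGCGC, typical of S-phase genes, were found in 8 of 20 DNA replication and repair genes (40%) and in 1.57% of all genes. Over 10421 tested genes with a promoter, the shares were 14.8% for the CHR and 2.68% for the E2F letters.

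S-phase genes gave fewer calls, and stem cell genes gave none. Of 26 DNA replication and repair genes, limma called none, DESeq2 called 5 lower, and 24 were negative, with a median log2 fold change of -0.72. Prim1, a primase subunit, had 60.2, 109.9, 89.6 and 126 in wildtype and 30.8, 59.7 and 37.9 in knockout (DESeq2 log2 fold change -1.18, adjusted p = 0.0102). Pola1, the polymerase subunit that works with it, had 22.0, 51.8, 45.3 and 95.8 in wildtype against 12.2, 26.2 and 18.4 in knockout (DESeq2 adjusted p = 0.0243). Atad2, a chromatin ATPase, and Mcm6, of the replicative helicase, were at DESeq2 log2 fold changes of -0.84 and -0.60. The DESeq2 count was 12 without knockout library 2, 8 without wildtype library 1, 3 without wildtype library 3 and 0 without knockout library 1, knockout library 3, wildtype library 2 or wildtype library 4. Of 17 intestinal stem cell genes, neither tool called any, and all 17 were negative, with a median of -0.60. Olfm4, a marker of crypt base stem cells, had 769.6, 1928, 979 and 2359 in wildtype and 257, 944 and 336 in knockout (log2 fold change -1.65, SE 0.499, limma adjusted p = 0.135). Lgr5, the receptor that defines these cells, had 9.55, 33.6, 20.6 and 56.0 in wildtype against 18.7, 19.0 and 14.1 in knockout, and its groups overlapped.

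Notch1 fell, and the rest of its pathway showed no further call. Notch1, the receptor through which neighbouring crypt cells keep progenitors undifferentiated, had (GRCm38 chromosome 2, 26457903 to 26516663) 49.7, 57.2, 52.5 and 91.7 in wildtype and 24.3, 24.4 and 23.8 in knockout. The log2 fold change was -1.30 with SE 0.206 (limma adjusted p = 0.0296), the knockout libraries were almost equal, and each lay below the lowest wildtype library. Of 12 Notch pathway genes, it was the only call by either tool, and 8 were negative, with a median of -0.16. In 3 of the 12, Notch1 among them, every knockout library lay below every wildtype library. The list's mean log2 level, which includes Notch1, was 6.96 to 7.21 in wildtype and 6.67 to 6.87 in knockout. On the ezetimibe diet all 12 were negative, with a median of -0.11. Tiam1, an activator of the GTPase Rac, fell from 28.6, 59.0, 43.3 and 75.4 to 13.8, 15.4 and 17.3, a log2 fold change of -1.59 with SE 0.286 (adjusted p = 0.0424).

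Paneth cell genes were lower in knockout, with a wide spread in wildtype. Of 8 Paneth cell markers, limma called none, DESeq2 called 6 lower, and all 8 were negative, with a median log2 fold change of -1.68. In 7 of the 8 every knockout library lay below every wildtype library. Lyz1, the lysozyme of Paneth cell granules, had 7736, 24782, 8884 and 25521 in wildtype and 3903, 6059 and 3748 in knockout (DESeq2 log2 fold change -1.88, adjusted p = 0.02; limma adjusted p = 0.107). Mptx2, a pentraxin of these cells, had 219.6, 713, 508 and 1386 in wildtype against 133, 203 and 114 in knockout (DESeq2 adjusted p = 0.00368). Mmp7, the protease that activates α-defensins, had 140.4, 502, 253 and 678 in wildtype against 97.4, 131 and 87.7 in knockout (DESeq2 adjusted p = 0.0178), and Ang4, an antimicrobial ribonuclease, 794, 1877, 1111 and 2231 in wildtype against 370.1, 641 and 421 in knockout (DESeq2 adjusted p = 0.0187). For each of these genes wildtype libraries 2 and 4 were the highest. Among 18 α-defensin genes tested, a list chosen after its values were seen, DESeq2 called 13 lower and all were negative, with a median of -1.76. Defa22 had 2146, 6986, 2560.2 and 6727 in wildtype and 812, 1682 and 914 in knockout, but these genes have near-identical copies, so how reads were shared among them is uncertain. The Paneth cell count was 0 without knockout library 1, 1 without knockout library 3, 2 without wildtype library 2, 3 without wildtype library 4 and 8 without wildtype library 1. The α-defensin count was likewise 0, 2, 2, 4 and 17.

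The mean log2 level of each list places these groups in the single libraries. Mitosis and spindle genes averaged 6.28, 7.21, 6.43 and 7.50 in wildtype libraries 1 to 4 and 5.21, 6.06 and 5.83 in knockout libraries 1 to 3. Paneth cell markers averaged 9.98, 11.57, 10.50 and 11.85 and 9.10, 9.78 and 9.03, and stem cell genes 6.28, 6.98, 6.75 and 7.67 and 5.98, 6.74 and 5.87. In all 3 lists wildtype libraries 2 and 4 were above wildtype libraries 1 and 3, and knockout library 2 was the highest of its group. The knockout libraries lay below every wildtype library for the mitosis and Paneth lists and overlapped with them for the stem cell list. In whole tissue, fewer cells of a type and less RNA per cell cannot be told apart, and how much of the crypt each piece held was not recorded in the labels, so its part in the result was not tested. The medians of the mitosis and Paneth lists stayed negative whichever library was left out, from -1.46 to -0.947 and from -2.0 to -1.38.

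**Figure D3:**
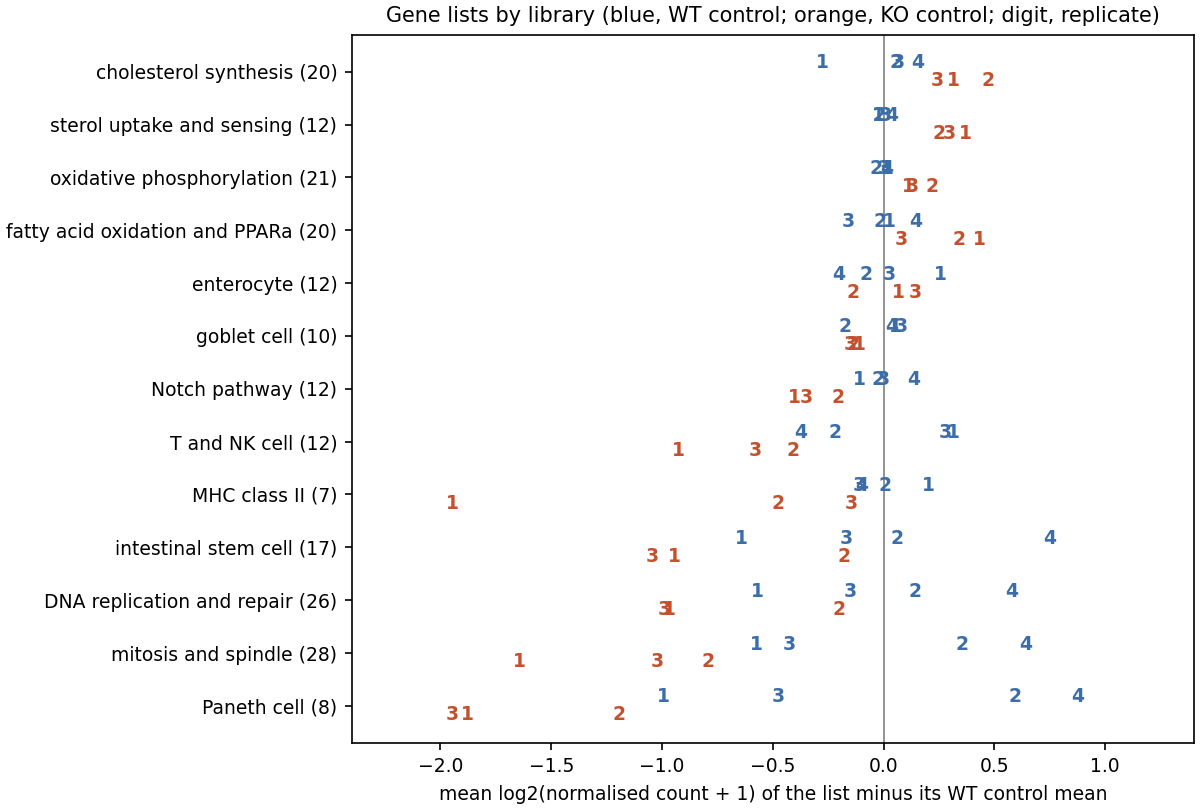
Mean log2(normalised count + 1) of each gene list in each library, relative to the list's wildtype mean, with the number of genes tested in brackets (blue digits, wildtype replicates 1 to 4; orange digits, knockout replicates 1 to 3). Knockout libraries lie to the left for mitosis and Paneth cell genes and to the right for cholesterol synthesis and sterol uptake genes, and wildtype replicates 2 and 4 lie to the right of 1 and 3 for mitosis, stem and Paneth cell genes.

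Leukocyte genes were another group among those that fell. Ptprc, the pan-leukocyte phosphatase CD45, had 917, 911, 1003 and 796 in wildtype and 490.2, 568 and 628 in knockout, a log2 fold change of -0.69 with SE 0.117 (limma adjusted p = 0.0309). Dock2, which drives lymphocyte migration through Rac, had 89.8, 107, 112 and 103 in wildtype against 45.4, 50.7 and 59.6 in knockout, a log2 fold change of -0.98 with SE 0.160 (adjusted p = 0.0309). For both genes the wildtype libraries were close together, without the split between libraries seen for the crypt genes, and all knockout libraries were lower. The T cell markers below differed between wildtype libraries. Jak3, the kinase of the common cytokine receptor γ chain, fell from 142, 114, 173 and 129 to 69.0, 86.0 and 70.4 (log2 fold change -0.88, SE 0.176), although it overlaps Insl3 and passed in no fit that left out 1 library. Traf3ip3, an adaptor of lymphocyte development, fell, with a log2 fold change of -1.16 (SE 0.213), and Tnfrsf1b, the second TNF receptor, with -0.87 (SE 0.167).

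Genes of the GIMAP family, GTPases of lymphocytes, were lower together. Gimap6 had 212, 189.8, 256 and 165 in wildtype and 99.8, 124 and 105 in knockout, a log2 fold change of -0.89 with SE 0.147 (limma adjusted p = 0.0309). Gimap4 and Gimap3 fell, with log2 fold changes of -0.84 (SE 0.164) and -0.77 (SE 0.148). All 8 family members tested were negative, with a median of -0.69, limma called 3 and DESeq2 4 (2 without knockout library 1), and the family was listed after its values were seen. These genes lie side by side and resemble each other, so how reads were shared among them is uncertain. Sash3, Arhgap45, Acap1 and Gpr55, all known from leukocytes, fell, with log2 fold changes of -0.76, -0.74, -0.74 and -0.72.

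T and NK cell markers were lower, with calls by DESeq2 alone. Of 12 such markers, limma called none and DESeq2 called 4 lower (33.3%, against 1.85% of all genes). All 12 were negative, with a median log2 fold change of -0.61. Itgae, the integrin that holds intraepithelial lymphocytes to the epithelium, had 523, 361, 555 and 256 in wildtype and 183, 221 and 231 in knockout (DESeq2 log2 fold change -1.01, adjusted p = 0.00571; limma adjusted p = 0.0855). Cd8b1, the CD8 β chain, had 54.4, 24.5, 54.6 and 33.6 in wildtype against 8.93, 19.9 and 19.5 in knockout (DESeq2 adjusted p = 0.0135). Ccl5, a chemokine of cytotoxic lymphocytes, and Cd7, a T cell surface protein, completed the DESeq2 calls (adjusted p = 0.0307 and 0.0337). Ccl5 and Cd7 overlapped between the groups, the other 2 did not. The Itgae gene overlaps Haspin, and how reads were split between them is uncertain. The list's summed level was 4654 to 7717 in wildtype and 3574 to 4779 in knockout. The DESeq2 count was 0 without knockout library 1, 1 without wildtype library 3, 2 without knockout library 3 or wildtype library 1, and 7 without wildtype library 4. The mean log2 level was 8.39, 7.85, 8.35 and 7.70 in wildtype libraries 1 to 4 and 7.15, 7.67 and 7.50 in knockout libraries 1 to 3. Wildtype libraries 1 and 3 were thus the highest, the reverse of the crypt lists, and knockout library 2 lay just below wildtype library 4.

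Other immune lists gave no call by either tool. B and plasma cell markers had a summed level of 1846 to 8045 in wildtype and 2775 to 5556 in knockout, and their median over 9 genes was -0.42. Macrophage markers had 669 to 1573 and 1027 to 1259, with a median of 0.29 over 12 genes. The 7 antigen presentation genes of the MHC class II list were all negative, with a median of -0.90, but the size of this median leaned on knockout library 1. The list's mean log2 level was 11.67 to 11.98 in wildtype and 9.84, 11.31 and 11.64 in knockout libraries 1 to 3. H2-Aa, an MHC class II chain, had 13990.1, 9954, 9710.2 and 8705 in wildtype and 1770.1, 6515 and 8011 in knockout (log2 fold change -1.20, SE 0.401, limma adjusted p = 0.169), and without that library the list median was -0.391. Of 20 interferon response genes 19 were negative, with a median of -0.30.

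The remaining 8 genes that fell were of mixed or uncertain kind. Tut4 and Ankrd44 passed in none of the fits that left out 1 library. Tut4, which adds uridines to RNA ends, had 332, 259, 393 and 271 in wildtype and 171, 149 and 178 in knockout (log2 fold change -0.90, SE 0.184, limma adjusted p = 0.0486). Far2, a fatty acyl-CoA reductase, fell, with a log2 fold change of -0.80 (SE 0.162), Ppp1r16b, a phosphatase subunit, with -0.82 (SE 0.164), Septin6, a filament GTPase, with -0.67 (SE 0.135), and Ankrd44 with -0.68 (SE 0.136). Together with Tiam1 above, Zfp831 and BE692007 completed the 8. Zfp831 and BE692007 were the least abundant, with wildtype means of 34.7 ± 8.16 and 30.5 ± 2.72 (SD, n = 4), and BE692007 overlaps Ms4a6c.

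**Figure D4:**
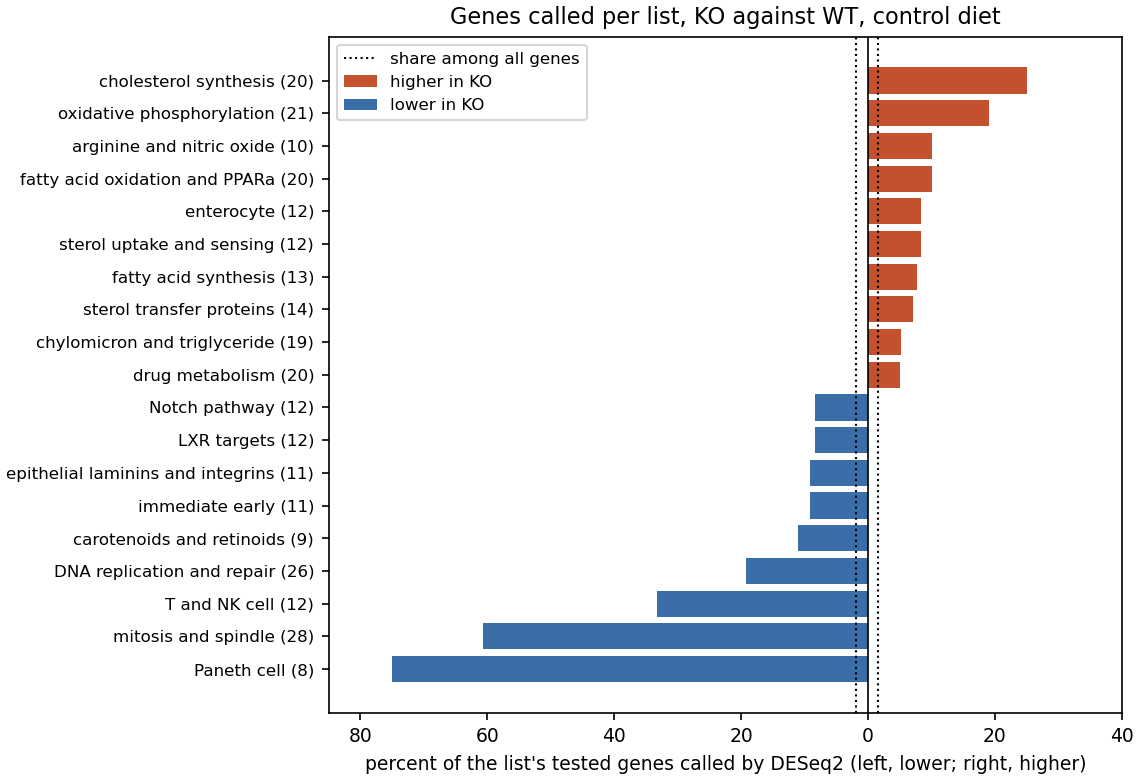
Share of each gene list's tested genes (number in brackets) that DESeq2 called higher (orange, right) or lower (blue, left) in knockout on the control diet, for lists of at least 8 genes with a call, leaving out the GIMAP and α-defensin lists that were chosen after their values were seen. Dotted lines mark the shares among all genes, 1.57% higher and 1.85% lower, and the Paneth cell (6 of 8) and mitosis (17 of 28) lists have the longest bars of those drawn.

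Mature epithelial cell types other than Paneth cells showed few calls. Of 12 enterocyte markers, limma called none and DESeq2 called Fabp1 higher, with a list median of -0.059. Fabp1, the liver-type fatty acid binding protein, had 37405, 36225, 27408 and 42119 in wildtype and 57988, 61596 and 40898 in knockout (DESeq2 log2 fold change 0.58, adjusted p = 0.0337). Neither tool called any of 10 goblet cell, 12 enteroendocrine or 8 tuft cell genes, whose medians were -0.13, -0.033 and -0.0063. Fabp1 was also the only DESeq2 call among 19 chylomicron and triglyceride genes. Of 20 drug metabolism genes DESeq2 called Gsta4, a glutathione transferase, higher (log2 fold change 0.72, adjusted p = 0.0241), and of 15 nutrient transporters neither tool called any. Of 14 sterol transfer proteins other than the Asters, DESeq2 called Scp2 higher, at 16762, 13633, 12458 and 12758 in wildtype and 17796, 17531 and 17825 in knockout (adjusted p = 0.0481). Among 11 epithelial laminins and integrins it called Itga2, a collagen receptor chain, lower (DESeq2 log2 fold change -0.55, adjusted p = 0.0319).

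Markers of tissue that can come along with a piece of jejunum were also followed. Adipocyte genes had summed levels of 6.18 to 304 in wildtype and 56.8 to 533 in knockout, and all 5 tested had positive log2 fold changes, with a median of 2.23 and no call. Adipoq, the adipocyte hormone adiponectin, had 0, 22.7, 1.03 and 1.02 in wildtype and 4.06, 40.7 and 14.1 in knockout. Smooth muscle genes summed to 26.7 to 209.9 and 37.3 to 83.4, stromal genes to 181 to 367 and 189.9 to 284, and endothelial genes to 201 to 349 and 204 to 236. No glial or neuronal gene reached the level required for testing. No gene of these lists was called, and their part in the results above was not tested.

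The same genotypes were also compared on the ezetimibe diet. Those libraries give none of the control-diet means or fold changes, but both comparisons share the filter and the estimate of spread. There, limma called 1 gene between knockout and wildtype, Gramd1c (0.00699%), at a log2 fold change of -3.34. Of the 53 genes called on the control diet, 51 had the same sign on the ezetimibe diet (96.2%), against 60.1% of all genes tested, and 32 of the 53 reached an unadjusted p of 0.05 there, against 2352 of all 14299. All 32 that fell kept a negative sign, with a median log2 fold change of -0.96 on the control diet and -0.48 with ezetimibe. Of the 21 that rose, 19 kept a positive sign, with medians of 0.57 and 0.22, and Ctsz and Aprt were the exceptions at -0.0074 and -0.052. In 52 of the 53 the absolute value was smaller with ezetimibe, but these genes were chosen by their control-diet values, so the sizes are not an even comparison.

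The 2 values lay at different distances from gene to gene, and for none of the genes named next did the difference pass the interaction test given further on. Insig1 had a mean of 1586 ± 185 in wildtype and 2746 ± 219 in knockout with ezetimibe (SD, n = 4 each), a log2 fold change of 0.80 beside 0.89 on the control diet. Efna1 was at 0.62 beside 0.63, and Ckb at 0.70 beside 0.91. Abca1 had means of 183 ± 37.9 and 101 ± 12.6, a log2 fold change of -0.84 beside -1.64, from a level well below that on the control diet in both genotypes. Mvk was at 0.03 beside 0.59, Ddah1 at 0.56 beside 1.58, Notch1 at -0.21 beside -1.30, and Ptprc at -0.30 beside -0.69. The median of the mitosis list was -0.59 with ezetimibe beside -1.24, that of the Paneth list -0.65 beside -1.68, and that of the fatty acid oxidation list -0.11 beside 0.28. Other lists had medians that were not smaller in size with ezetimibe. The stem cell list was at -0.62 beside -0.60, and the sterol uptake and sensing list at 0.31 beside 0.30. The B and plasma cell list was at -0.84 beside -0.42, and the interferon list at -0.52 beside -0.30.

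**Figure D5:**
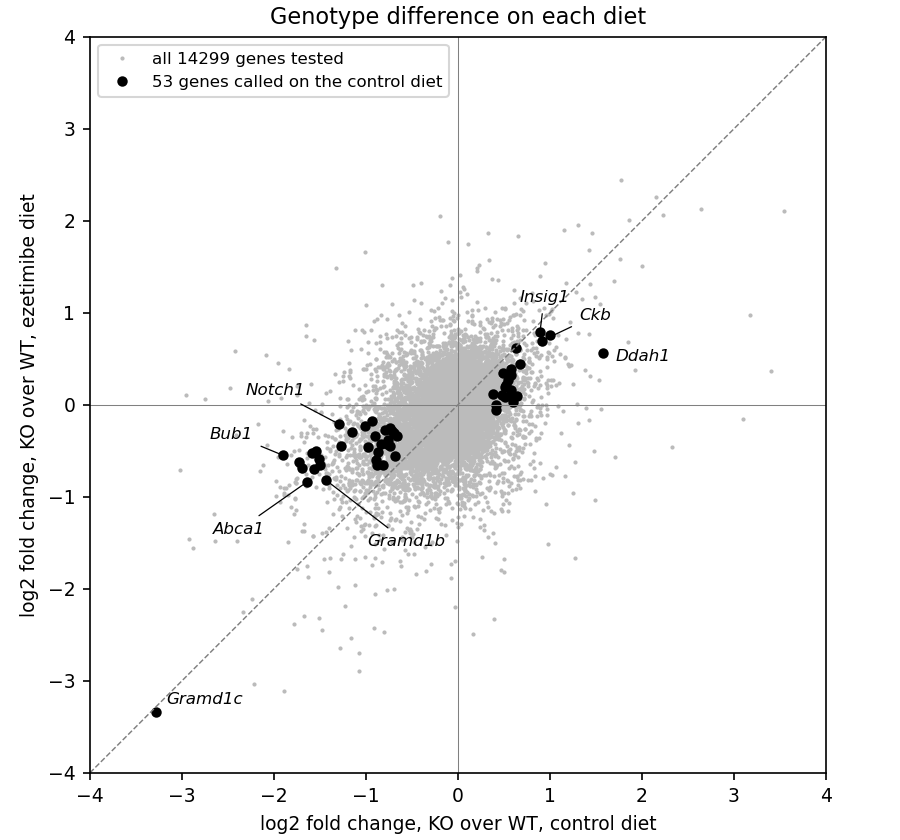
Log2 fold change of knockout over wildtype on the control diet (x) and on the ezetimibe diet (y) for 14299 genes tested (grey; 1 gene lies outside the axes) and the 53 genes called on the control diet (black), with the line of equal values dashed. Of the black points 51 have the same sign on both axes, and Gramd1c lies at -3.28 and -3.34.

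Whether the genotype difference itself changed with diet was tested as an interaction. No gene passed by limma (0%, smallest adjusted p = 0.681), edgeR or voom, with 1004, 1034 and 1052 genes at an unadjusted p under 0.05. DESeq2 called 5 genes. Fosb, an immediate early transcription factor, had log2 fold changes of -1.65 on the control diet and 0.87 with ezetimibe. Bco1, which cleaves β-carotene, had -1.32 and 1.49, and Naip6, an inflammasome sensor, -0.73 and 0.37. Kansl1, of a histone acetyltransferase complex, had -0.40 and 0.23, and Ccne2, a cyclin of S-phase entry, -0.26 and 1.02. All 5 were negative on the control diet and positive with ezetimibe, and Ccne2 overlaps Ints8. Fosb, Bco1, Naip6 and Kansl1 were also lower in knockout in the authors' deposited control-diet comparison. Their DESeq2 adjusted p there was 0.000272, 0.0209, 0.00364 and 0.0124. On that diet Fosb had 438, 172, 518 and 148 in wildtype and 88.5, 68.8 and 109 in knockout, without overlap.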

How the data were processed

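Per the labels' protocols, the tissue was frozen, RNA was taken up in TRIzol, and a NEBNext Ultra II kit gave the libraries. The submitters' processing notes name DESeq2, FastQC, mm10 and STAR 2.6.0c. Which counter, annotation and strand setting were used is not given in the sources used. The deposited signal is the authors' DESeq2-normalised count of 26844 genes for each of 15 libraries, per the file headers. The authors' own comparisons were deposited as tables of significant genes with a mean signal, a log2 fold change, a fold change as a ratio, a Wald score and p-values, per the file headers, and are used only where named. Every value above 0 was a whole multiple of what 1 read is worth in its library, within 0.01 read (100% of values), so counts of whole reads were recovered from the authors' deposited signal.

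The 14299 genes that reached 10 in 3 or more of the 15 libraries were tested by limma 3.58.1 in R 4.3.3, on log2(value + 1) with its trend option, a scale that understates changes of low genes. The 4 groups of all 15 libraries shared 1 estimate of spread, and p-values were adjusted by Benjamini-Hochberg over all genes tested, with calls under 0.05. DESeq2 1.42.0, edgeR 4.0.16 and voom were run on the recovered reads, and other pseudocounts, filters, TMM scaling, a replicate block, the compared groups alone and leave-one-out fits were alternatives. Leave-one-out fits of DESeq2 were added after seeing the data. The scripts were tested on simulated data.

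GENCODE M21 on GRCm38 held 26825 of the 26844 identifiers, and promoters came from RefSeq on GRCm38.p6. Of 109 genes named from these data, 40 overlap another gene of the table. Beyond those stated above, they include Cox4i1 (with Emc8), Cox6c (with Vps13b), Scp2 (with Podn) and Prune1 (with Mindy1). No 2 libraries agreed within sampling noise (lowest chi-square per degree of freedom 19.9). Values are given per library.

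The members and the 43 gene lists were chosen with earlier results of these data known, and 2 further lists were added after their values were seen. Named genes are Gramd1a to Gramd1c and Npc1l1, the called genes whose mean reached 50 in either group (up to 15 each way, the others named to account for all), up to 4 genes per list with the smallest p, the genes nearest to an interaction, and the 10 highest and 10 lowest folds among DESeq2 calls with a mean of at least 100, of which some are given only as part of their list. Lgr5, Mvd, Kif11, Kansl1 and genes of the 2 further lists were added as markers or as the rest of a count, after their values were seen. The lists have no test: counts and medians stand beside those over all genes.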

Additional observations from a re-analysis of the deposited data

Results flagged for a closer look

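Within the 4 wildtype control libraries, 6 values lay so far from their neighbours that their gap passed Dixon's 95% limit, among 155 groups of values looked at. Chance flags about 1 in 20 groups, so this number is below that rate. Ctsa had 1981 in library 1, above the others at 1756 to 1773, and every knockout library was still higher. Ndufa1 had 544 in library 3, below the others. Arhgap45 had 343 in library 3, above the others, and the knockout libraries lay below all 4. Kansl1 had 457 in library 2, below the others. Adipoq had 22.7 in library 2, where the other wildtype libraries had at most 1.03. The mean log2 level of the goblet cell genes was 11.8 in library 2, below the others.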

How the results depend on the processing

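The 53 calls on the control diet became 442 with DESeq2, 231 with a replicate block, 17 with a pseudocount of 5, 12 with edgeR and also without a filter, 10 with voom, 3 with the compared groups alone, and 3 to 126 when 1 library was left out (4 without wildtype library 2 or knockout library 3, 7 without wildtype library 3, 18 without wildtype library 4, 41 without knockout library 2). Under TMM scaling 38 were called, 9 of them higher (23.7% against 39.6%), while the median of all genes moved from -0.0054 to -0.015. On the ezetimibe diet 1 call became 86 with DESeq2, 6 with the block and 3 with the compared groups alone. The interaction's 0 calls became 5 with DESeq2 and 0 to 1 when 1 library was left out, Naip6 without wildtype ezetimibe replicate 3. The cause was not tested. Same-numbered libraries of the control diet had correlations of deviations of 0.123, 0.17 and -0.091. Wildtype 1 was nearest to knockout 3 (0.331) and wildtype 4 to knockout 2 (0.371). So few values, from the control diet alone, cannot show whether the replicate numbers pair samples. The direction of 108 of 109 gene values held in every alternative. Npc1l1, at 0.018, turned to -0.0355 with the block, -0.14 without knockout library 3, -0.0309 without wildtype library 2 and -0.0393 without wildtype library 4. Over all alternatives 497 of 1840 gene values lost a call, 84 gained one and 4 changed sign. With 3 knockout libraries, low-expressed genes such as Lgr5 carry wide spreads.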
